A study of Mus musculus with 18 samples.

Results

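The 10 core genes of the circadian clock listed here were followed in RNA from whole descending aortas: Arntl (also called Bmal1), Npas2, Per1, Per2, Per3, Cry1, Nr1d1, Nr1d2, Dbp and Ciart. They were picked by name as components and direct outputs of the clock, not by their values, and their Ensembl identifiers were looked up among the 54281 genes of the count table. All 10 were found, and all 10 passed the filter on low counts that left 15210 genes for testing. The 18 aortas came from 6 mice in each of 3 groups, all male and all on the C57BL/6 strain. HGPS mice carried the Lmna G609G knock-in at the endogenous locus, a mouse model of Hutchinson–Gilford Progeria Syndrome that makes progerin, and had ages of 64 to 75 d. In the 2-mo WT group 5 mice had reached 62 d and 1 had reached 95 d, while ages in the 24-mo WT group spanned 609 to 762 d. The vessel was taken between the arch and the diaphragm with its intimal, medial and adventitial layers after perfusion with PBS, and the time of day of the dissection was not given in the sources used here. The label genotype does not say how many copies of the allele each mouse carried, and counts per gene do not separate progerin from lamin A.

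The mammalian clock is a feedback loop of transcription. ARNTL pairs with CLOCK or its relative NPAS2 and switches on the Per and Cry genes, the Rev-erb genes Nr1d1 and Nr1d2, and outputs such as Dbp and Ciart through E-box elements. PER and CRY proteins then hold the activators back, and the Rev-erb proteins repress Arntl, so that in tissues with a running clock Arntl and Npas2 peak at about the opposite time of day to Nr1d1 and Dbp. Vascular smooth muscle and endothelium have such clocks of their own.

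Promoter sequences are shown because the E-box and the D-box are the elements through which the loop acts on these genes. Of the 10 genes, 9 had an entry in the RefSeq promoter table (GRCm38.p6), which covers 250 bases before and 50 bases after each start. The E-box, CACGTG on either strand, was found 3 times at Ciart, a repressor of the loop, and once each at Cry1 and Per1, in 3 genes in all against 7.17% of 32544 promoters. The D-box, TTATGTAA on either strand and bound by DBP and its relatives, was found at Per3 alone, with 2 copies, against 0.931% of promoters. The short site AGGTCA on either strand, read by ROR and Rev-erb proteins, was in promoters of Arntl, Per1 and Nr1d2, against 16.2% of promoters. Arntl and Per1 had 2 promoter entries each, so counts of genes and shares of promoters are not fully alike. The E-box of Per1 stands before a start that lies inside the gene (chr11:69095217-69109960), not at its 5′ end. A match describes these letters in this window and nothing more. In the windows below, each written from 5′ to 3′ on the strand of its gene, capitals mark the E-box or D-box.

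Ciart, first E-box, 116 bases before the start, chr3:95882329-95882354, minus strand: catctagagtCACGTGttgccggtaa

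Ciart, the other two E-boxes, 58 and 44 bases before the start, chr3:95882262-95882291, minus strand: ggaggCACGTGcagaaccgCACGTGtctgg

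Cry1, E-box, 60 bases before the start, chr10:85185099-85185124, minus strand: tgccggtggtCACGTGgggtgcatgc

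Per1, E-box, 166 bases before the start, chr11:69098773-69098798, plus strand: cacccaagtcCACGTGcagggatgtg

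Per3, first D-box, 205 bases before the start, chr4:151044853-151044880, minus strand: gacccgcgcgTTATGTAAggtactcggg

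Per3, second D-box, 158 bases before the start, chr4:151044806-151044833, minus strand: ccgcccgcggTTATGTAAcccccgccgt

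Totals ran from 12413229 to 30844775 estimated counts per mouse, and levels are given as CPM, the usual scaling of a gene's counts to the size of its library, here after TMM normalization. Differences between groups are log2 fold changes with their standard error (SE) from edgeR's quasi-likelihood test, called at an adjusted p under 0.05 over all genes tested. Smooth muscle markers summed to between 19400 and 37800 CPM over all mice, and endothelial markers to between 454 and 1340 CPM, which matches the labelled tissue. The 3 comparisons share mice, so they do not stand apart from each other as evidence. Nothing in the labels says whether mice of a group shared a litter or a cage.

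In the clock genes as a set, 5 were lower and 1 was higher in the HGPS aorta than in the 2-mo WT aorta. Per2, Per3, Nr1d1, Nr1d2 and Dbp fell, Cry1 rose, and Arntl, Npas2, Per1 and Ciart did not pass the test. When marker scores of brown fat and skeletal muscle were added to the fit, all 5 falls lost their call, with Dbp going from -1.25 to -0.27, Per2 from -0.71 to -0.26 and Nr1d2 from -0.47 to 0.12, and Cry1 kept its call. Brown fat markers were higher in HGPS mice, so that fit cannot tell the score apart from the genotype. The 6 calls of 10 in the fit on group alone stand beside a background of 43.2% of all tested genes called in this comparison, 22% higher and 21.2% lower. In the second comparison, age alone (24-mo WT against 2-mo WT) gave 1 call of 10, Ciart, beside 11.7% of all genes, 6.29% higher and 5.38% lower. In 0 of the 10 genes were the WT ages clear of each other, beside 6.28% of all genes, 3.2% higher and 3.08% lower. HGPS against 24-mo WT again gave 6 calls of 10, the same genes in the same directions, beside 47.3% of all genes, 23.8% higher and 23.6% lower. The shares of clock genes called were thus near those of all genes, apart from the lower side in HGPS, where 5 of 10 stand beside 21.2% against 2-mo WT and 23.6% against 24-mo WT. In 0 of the 10 did all HGPS mice lie below all 2-mo WT mice, beside 10.9% of all genes. In 2 of the 10 they lay below all 24-mo WT mice, beside 11.3%. Dbp, Nr1d2, Per2 and Per3 also varied together with Arntl between mice, so the calls of these genes are not separate counts. For Nr1d1 the relation to Arntl did not pass. The median log2 fold change of the 10 genes was -0.50 against 2-mo WT, 0.06 between the WT ages and -0.54 against 24-mo WT, beside medians of all genes of 0.00, 0.01 and -0.01. Whole tissue RNA was measured, so fewer cells of a type and less RNA per cell cannot be told apart.

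**Figure D1:**
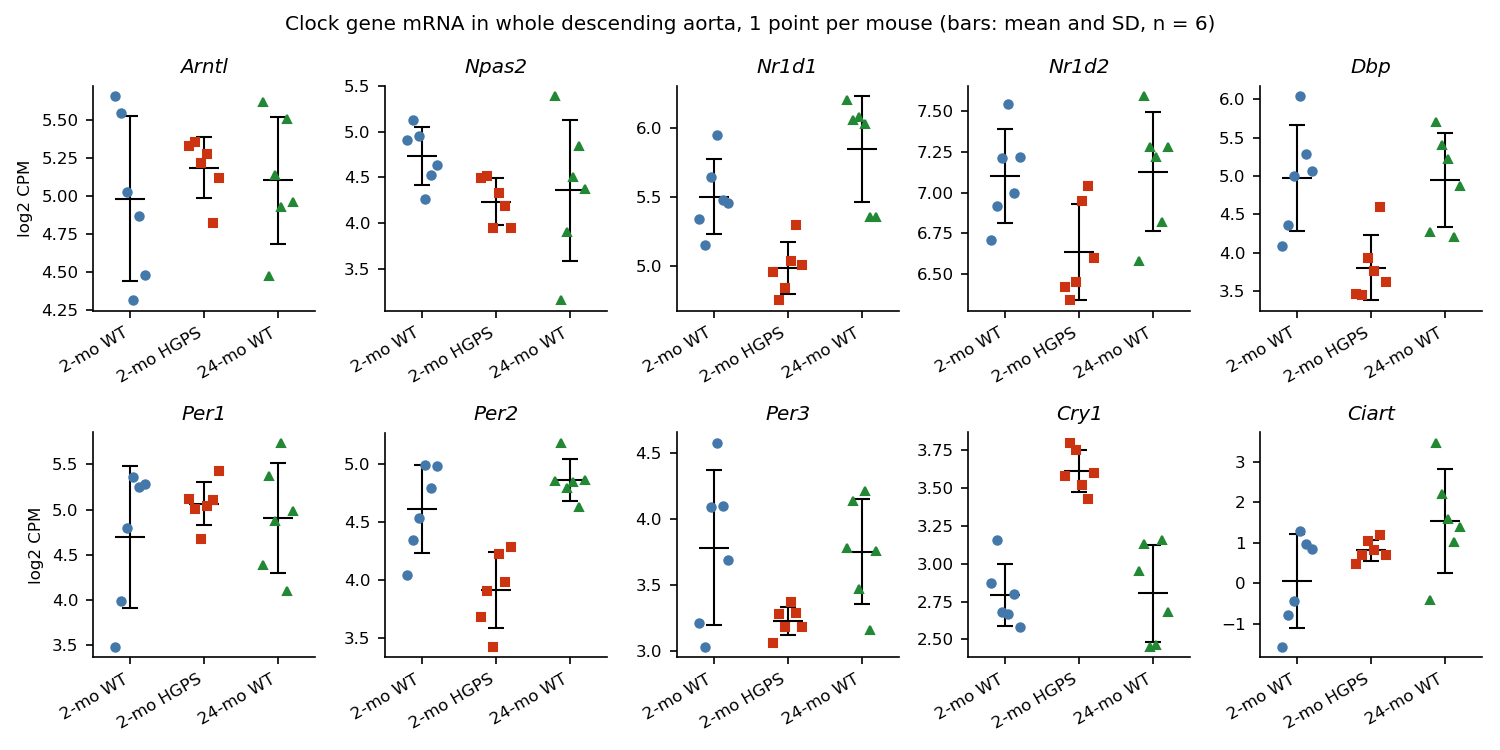
Level of each of the 10 clock genes (log2 CPM, vertical axis) in each mouse of the 3 groups (horizontal axis). Points are mice and black bars are the mean and SD of 6 mice. Cry1 in HGPS mice lies above every WT mouse, Dbp, Per2, Per3 and Nr1d1 lie low in HGPS mice, and points of the WT groups are spread widely for Arntl, Per1, Dbp and Ciart.

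Arntl, the activator on which the loop turns (chr7:113207465-113314126), ranged from 19.8 to 50.5 CPM with a median of 30.9 in 2-mo WT mice, from 28.1 to 40.9 with a median of 38.0 in HGPS mice, and from 22 to 49.1 with a median of 33.2 in 24-mo WT mice. All HGPS values lay inside the range of the 2-mo WT mice. The log2 fold change was 0.12 (SE 0.21, edgeR adjusted p = 0.676) in HGPS against 2-mo WT, and 0.08 (SE 0.21, edgeR adjusted p = 0.858) in 24-mo against 2-mo WT.

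Npas2, which stands in for CLOCK as partner of ARNTL (chr1:39193731-39363236), ranged from 19.1 to 34.9 CPM (median 27.4) in 2-mo WT mice, from 15.2 to 22.7 (median 19.1) in HGPS mice, and from 8.75 to 41.8 (median 21.5) in 24-mo WT mice. The 24-mo WT mice held both the lowest and the highest value, and all groups overlapped. In HGPS against 2-mo WT the log2 fold change was -0.52 (SE 0.25, edgeR adjusted p = 0.103). It passed the test when 24-mo WT mice were left out of the fit (adjusted p = 0.00921 in edgeR with the 2 groups alone).

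Nr1d1 encodes REV-ERB alpha, a heme-binding repressor of Arntl (chr11:98767932-98775333). It ranged from 35.5 to 61.7 CPM (median 44.2) in 2-mo WT mice, from 26.9 to 39.2 (median 31.5) in HGPS mice, and from 40.9 to 74.0 (median 65.9) in 24-mo WT mice. HGPS mice lay below all 24-mo WT mice and overlapped the lowest 2-mo WT mouse. Nr1d1 fell by 0.53 on the log2 scale (SE 0.15, edgeR adjusted p = 0.00887) against 2-mo WT and by 0.90 (SE 0.15, edgeR adjusted p = 9.56e-05) against 24-mo WT. Between the WT ages it differed by 0.37 (SE 0.15, edgeR adjusted p = 0.132), which did not pass the test, and 4 of the 24-mo mice stood at 65.1 CPM or more while the other two were at 40.9.

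Nr1d2, encoding REV-ERB beta (chr14:18204054-18239127), had the highest level per kb of the 10 genes. It ranged from 104 to 186 CPM (median 138) in 2-mo WT mice, from 80.8 to 131 (median 91.9) in HGPS mice, and from 95.5 to 193 (median 152) in 24-mo WT mice. All groups overlapped. It fell by 0.47 on the log2 scale (SE 0.17, edgeR adjusted p = 0.0286) against 2-mo WT, a call that was lost when any 1 of 6 mice was left out, with edgeR adjusted p up to 0.0847 without the 2-mo WT mouse of replicate 4.

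Dbp, an activator of D-box genes and a standard readout of the clock (chr7:45705088-45710203), had the largest fall of the 10 genes against 2-mo WT. In 2-mo WT mice it ranged from 16.8 to 65.6 CPM (median 32.6), in HGPS mice from 10.8 to 24.0 (median 12.8), and in 24-mo WT mice from 18.3 to 51.9 (median 33.1). The single HGPS mouse at 24.0 CPM, replicate 5, lay among WT values, and the other 5 lay below every WT mouse. Dbp fell by 1.25 on the log2 scale (SE 0.31, edgeR adjusted p = 0.00317) against 2-mo WT and by 1.19 (SE 0.31, edgeR adjusted p = 0.00384) against 24-mo WT. Between the WT ages its log2 fold change was -0.06 (SE 0.30, edgeR adjusted p = 0.933).

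Per1, a repressor that also answers quickly to glucocorticoid (chr11:69095217-69109960), ranged from 11.0 to 41.1 CPM (median 32.8) in 2-mo WT mice, from 25.5 to 43.1 (median 33.7) in HGPS mice and from 17 to 53.2 (median 30.3) in 24-mo WT mice. No difference between groups passed the test, with log2 fold changes of 0.24 (SE 0.29, edgeR adjusted p = 0.531) in HGPS and 0.17 (SE 0.29, edgeR adjusted p = 0.774) in 24-mo WT, both against 2-mo WT. Per2, its paralogue and the partner of the cryptochromes (chr1:91415982-91459324), did differ. It ranged from 16.3 to 31.7 CPM (median 25.3) in 2-mo WT mice, from 10.6 to 19.3 (median 15.3) in HGPS mice, and from 24.6 to 36.1 (median 28.7) in 24-mo WT mice. HGPS mice lay below all 24-mo WT mice and overlapped the lowest mouse of the 2-mo WT group. Per2 fell by 0.71 on the log2 scale (SE 0.16, edgeR adjusted p = 0.0016) against 2-mo WT and by 0.92 (SE 0.16, edgeR adjusted p = 0.00011) against 24-mo WT.

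Per3, the last of the family (chr4:151003652-151044665), ranged from 8.06 to 23.8 CPM (median 14.8) in 2-mo WT mice, from 8.24 to 10.3 (median 9.29) in HGPS mice and from 8.87 to 18.4 (median 13.5) in 24-mo WT mice. HGPS mice were tightly grouped at the low end of the WT range and did not leave it. Per3 fell by 0.64 on the log2 scale (SE 0.22, edgeR adjusted p = 0.0222) against 2-mo WT. Without the 2-mo WT mouse of replicate 4, the highest of all, the difference was -0.45 and the call was lost (edgeR adjusted p = 0.0764). Against 24-mo WT it fell by 0.56 (SE 0.22, edgeR adjusted p = 0.0378), a call lost when any 1 of 9 mice was left out.

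Cry1, a cryptochrome that represses the ARNTL complex (chr10:85131700-85185064), was the only one of the 10 whose HGPS values lay clear of both WT groups. It ranged from 5.89 to 8.83 CPM (median 6.57) in 2-mo WT mice, from 10.7 to 13.8 (median 11.9) in HGPS mice, and from 5.34 to 8.81 (median 6.95) in 24-mo WT mice. Groups were clear of each other for 21.9% of all tested genes in HGPS against 2-mo WT (11% higher, 10.9% lower) and for 22.2% in HGPS against 24-mo WT (10.9% higher, 11.3% lower). Cry1 rose by a log2 fold change of 0.82 (SE 0.13, edgeR adjusted p = 8.71e-05), or 1.77-fold, against 2-mo WT and by 0.80 (SE 0.13, edgeR adjusted p = 8.22e-05) against 24-mo WT. It was called in every alternative fit of both comparisons, with log2 fold changes between 0.56 and 0.90. The study's stricter cut-offs (adjusted p below 0.001, change of 1.5-fold or more) were set here on the edgeR fit. Cry1 was then the 1 clock gene called against 2-mo WT, where 9.5% of all genes passed. The study set these cut-offs on DESeq2. In DESeq2 here, Per2 (-0.70, adjusted p = 9.9e-05) and Dbp (-1.25, adjusted p = 0.000928) also met them against 2-mo WT. In edgeR they called 3 clock genes against 24-mo WT, Per2, Cry1 and Nr1d1, beside 12.1% of all genes, and 0 between the WT ages, beside 2%.

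Ciart, a repressor of ARNTL (chr3:95878503-95882251), had the lowest level. Its raw counts were 5 to 35 in 2-mo WT mice, 23 to 53 in HGPS mice and 11 to 154 in 24-mo WT mice, so each value has a wide counting error. The levels were 0.230 to 2.35 CPM (median 1.17), 1.29 to 2.17 (median 1.58) and 0.645 to 11.0 (median 2.71) in that order. The highest value, in the 24-mo WT mouse of replicate 2, was 17.1 times the lowest in that group, and the groups overlapped. Ciart was the only clock gene called between the WT ages, at a log2 fold change of 1.71 (SE 0.54, edgeR adjusted p = 0.0454). That call was lost in most alternatives, and without the mouse of replicate 2 the log2 fold change was 1.07 (edgeR adjusted p = 0.158). HGPS against 24-mo WT gave -1.20 (SE 0.51, edgeR adjusted p = 0.0604). That value was -0.58 without the same 24-mo WT mouse of replicate 2, and it passed in DESeq2 (-1.22, adjusted p = 0.0345) and in edgeR without the 24-mo WT mouse of replicate 1 (-1.43, adjusted p = 0.0178) or 5 (-1.35, adjusted p = 0.0448) or the 2-mo WT mouse of replicate 1 (-1.21, adjusted p = 0.0444).

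Per kb of exon, Nr1d2 led in 2-mo WT mice at 25.8 ± 5.28 CPM per kb (SD, n = 6), before Nr1d1 at 15.0 ± 2.96 and Dbp at 11.5 ± 5.80. Npas2 (5.66 ± 1.21), Per1 (5.09 ± 2.27), Arntl (4.46 ± 1.68) and Per2 (4.27 ± 1.07) followed, each within 1 SD of its neighbour. Cry1 (2.06 ± 0.318), Per3 (1.52 ± 0.609) and Ciart (0.535 ± 0.387) came last.

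RNA of other cell types moved with the HGPS group. Brown fat markers summed to 108 to 672 CPM (median 282) in 2-mo WT mice, 498 to 1870 (median 920) in HGPS mice and 128 to 438 (median 184) in 24-mo WT mice, and all 9 tested markers of the 10, with the thermogenic gene Ucp1 among them, were higher in HGPS than in 2-mo WT mice. White fat markers summed to 63.5 to 301 CPM in 2-mo WT and 231 to 798 CPM in HGPS mice, with 4 of 6 higher, and macrophage markers to 360 to 550 CPM and 676 to 1070 CPM, with 5 of 5 higher. Of smooth muscle markers, 5 of 6 were lower in HGPS, with sums of 19400 to 27200 CPM against 29300 to 37800 CPM. Fibroblast markers summed to 2790 to 3130 CPM in 2-mo WT and 1840 to 2470 CPM in HGPS mice, with 3 of 5 lower. Skeletal muscle markers summed to 3.00 to 5.19 CPM and 2.98 to 5.89 CPM, nerve markers to 177 to 234 CPM and 157 to 194 CPM, and endothelial markers to 532 to 1320 CPM and 867 to 1170 CPM, with 0 of 6 endothelial markers called by edgeR. No marker of any list was at 0 in all mice of a group. When scores of the brown fat and skeletal muscle markers were added to the fit, 3 of 10 clock genes were called against 2-mo WT, beside 21.7% of all genes, and only Cry1 remained of the earlier 6 (log2 fold change 0.69, SE 0.19, edgeR adjusted p = 0.0141). Dbp was then at -0.27 (SE 0.36, adjusted p = 0.633), Per2 at -0.26 (SE 0.19, adjusted p = 0.35), Per3 at -0.21 (SE 0.30, adjusted p = 0.655) and Nr1d1 at -0.34 (SE 0.22, adjusted p = 0.283), while Nr1d2 changed sign to 0.12 (SE 0.16, adjusted p = 0.643). Npas2 (-0.99, SE 0.33, adjusted p = 0.0391) and Ciart (2.23, SE 0.72, adjusted p = 0.0347) were called in that fit. Against 24-mo WT, Cry1 (0.56, adjusted p = 0.0343) and Nr1d1 (-0.70, adjusted p = 0.0206) kept their calls in it, 2 of 10 beside 27.1% of all genes. The brown fat score, a mean log2 CPM, ran from 4.48 to 6.63 in HGPS mice. It ran from 0.73 to 5.02 in 2-mo WT and from 2.45 to 4.53 in 24-mo WT mice. The score was thus largely tied to the group, so this fit cannot tell it apart from the genotype. Skeletal muscle markers were at low levels, and against 2-mo WT Ckm was lower (-1.08), Tnnt3 higher (2.00) and the other tested markers not called. The part of the other cell types in the clock gene differences was not tested.

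Apart from the group means, mice differed in a pattern across the 10 genes. Over the 18 mice, those with more Arntl for their group had more Npas2 and less Dbp, Ciart, Nr1d2, Per1, Per2 and Per3. Over the 18 mice, with each group's mean removed in log2 CPM, Pearson's r with Arntl was -0.90 for Dbp (rho -0.86, adjusted permutation p = 0.00018), -0.88 for Ciart (rho -0.85, adjusted permutation p = 0.00018), -0.83 for Nr1d2 (rho -0.80, adjusted permutation p = 0.00018) and -0.85 for Per1 (rho -0.85, adjusted permutation p = 0.000828). It was 0.74 for Npas2 (rho 0.78, adjusted permutation p = 0.000828), -0.72 for Per2 (rho -0.71, adjusted permutation p = 0.00165) and -0.74 for Per3 (rho -0.63, adjusted permutation p = 0.0114). Cry1 (r 0.41, rho 0.54, adjusted permutation p = 0.137 for r and 0.0427 for rho) did not pass by r. Nr1d1 (r -0.45, rho -0.42, adjusted permutation p = 0.109 for r and 0.117 for rho) passed by neither. These were 9 relations, tested two-sided with 100000 permutations of mice within groups.

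Leaving out the 2 mice farthest from the median in Arntl, replicate 4 of 2-mo WT and replicate 2 of 24-mo WT, gave r of -0.83 for Dbp, -0.82 for Ciart, -0.74 for Nr1d2, -0.85 for Per1, 0.60 for Npas2 and -0.63 for Per2. For Per3 it gave -0.61, which no longer passed (permutation p = 0.0715), while with 1 mouse left out at a time r for Per3 stayed between -0.81 and -0.66. For Cry1 it gave 0.74 (permutation p = 0.0036), and for Nr1d1 -0.25. The 2-mo WT mice of replicates 1 and 4, both 62 d old, show the pattern. The first had Arntl at 50.5, Dbp at 16.8, Per1 at 11.0 and Ciart at 0.230 CPM. The second had Arntl at 19.8, Dbp at 65.6, Per1 at 41.1 and Ciart at 2.35 CPM, so the 2 mice of 1 age and genotype were at opposite ends for all 4 genes.

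The relations were also computed within each group of 6 mice, as 27 relations with exact two-sided permutation tests. In 2-mo WT mice, r with Arntl was -0.97 for Per2 (exact permutation p = 0.00139, adjusted 0.0188), -0.94 for Per1 (exact permutation p = 0.00139, adjusted 0.0188) and -0.93 for Ciart (exact permutation p = 0.00417, adjusted 0.0375). In 24-mo WT mice it was -0.96 for Nr1d2 (exact permutation p = 0.00694, adjusted 0.0468). Dbp had r of -0.92 in 2-mo WT, -0.91 in HGPS and -0.89 in 24-mo WT mice (exact permutation p = 0.0111, 0.0375 and 0.0194, adjusted 0.05, 0.095 and 0.0748). No relation in HGPS mice passed after adjustment. Nr1d1 had r of -0.85 in HGPS (exact permutation p = 0.0389, adjusted 0.095), -0.77 in 2-mo WT and -0.12 in 24-mo WT mice. In HGPS mice, r was also -0.74 for Ciart, -0.69 for Nr1d2, 0.66 for Cry1 and 0.48 for Npas2, with exact permutation p between 0.0889 and 0.332. It was -0.25 for Per1, -0.22 for Per2 and -0.20 for Per3, with exact permutation p between 0.55 and 0.693. All these HGPS values stand over a range of Arntl of 1.46-fold. That range was 2.55-fold in 2-mo WT and 2.23-fold in 24-mo WT mice. Whether the relations differed between groups was not tested.

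**Figure D2:**
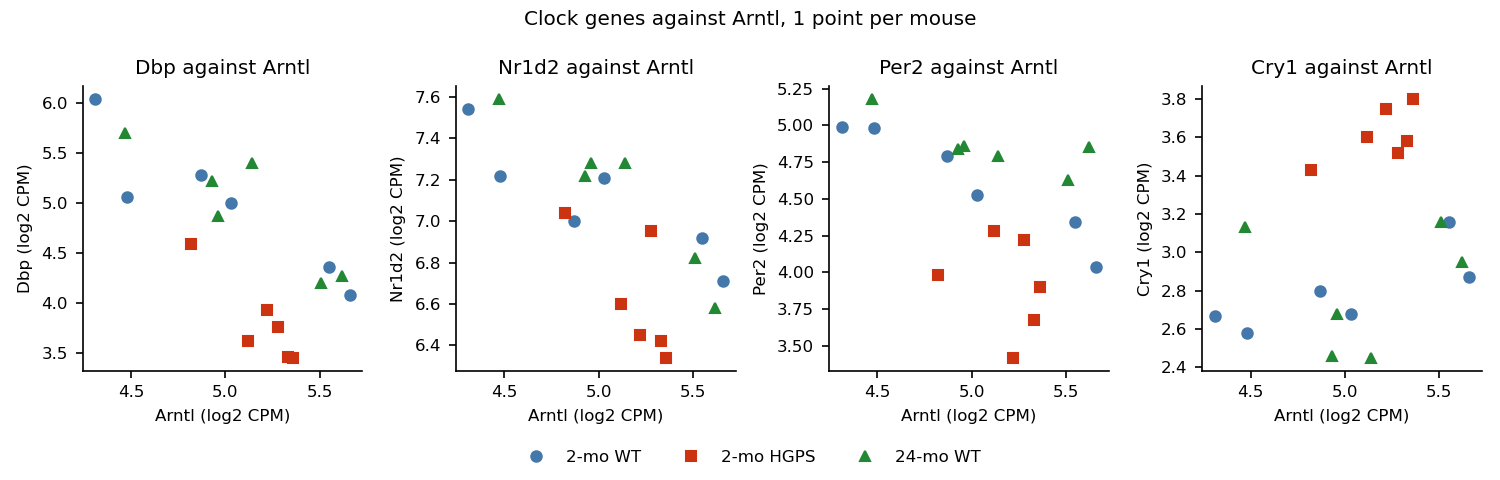
Dbp, Nr1d2, Per2 and Cry1 (vertical axes, log2 CPM) against Arntl (horizontal axes, log2 CPM), 1 point per mouse with a marker for each group. Dbp and Nr1d2 run down as Arntl runs up in each group, and at like levels of Arntl most HGPS mice lie below the WT mice for Dbp and Per2 and all lie above them for Cry1.

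Because Arntl varied between mice of 1 group, its log2 CPM was added to the fit as a covariate, a choice made after the values were seen. Against 2-mo WT, all 9 other clock genes were then called, beside 43.3% of all genes. Cry1 (log2 fold change 0.78, SE 0.13, edgeR adjusted p = 0.000123) and Dbp (-0.91, SE 0.15, edgeR adjusted p = 9.89e-05) remained, as did Per2 (-0.57), Per3 (-0.43), Nr1d1 (-0.46) and Nr1d2 (-0.33). Npas2 (-0.68, SE 0.18, edgeR adjusted p = 0.0061), Per1 (0.62, SE 0.17, edgeR adjusted p = 0.00806) and Ciart (1.28, SE 0.32, edgeR adjusted p = 0.00321) were added. Against 24-mo WT, the same 6 genes as without the covariate were called, beside 48.2% of all genes, with Cry1 at 0.78, Per2 at -0.88, Nr1d1 at -0.88, Dbp at -1.05, Per3 at -0.48 and Nr1d2 at -0.43. Between the WT ages, Ciart was called at 1.97 (SE 0.30, edgeR adjusted p = 0.00021), beside 12% of all genes. This fit gave Arntl 1 slope for all groups. In it, Npas2, Nr1d1, Nr1d2, Dbp, Per2 and Per3 were lower in HGPS than in 2-mo WT mice, and Per1, Cry1 and Ciart higher. The r of Per1 with Arntl was -0.94 in 2-mo WT and -0.25 in HGPS mice, and whether the slopes differed between groups was not tested.

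**Figure D3:**
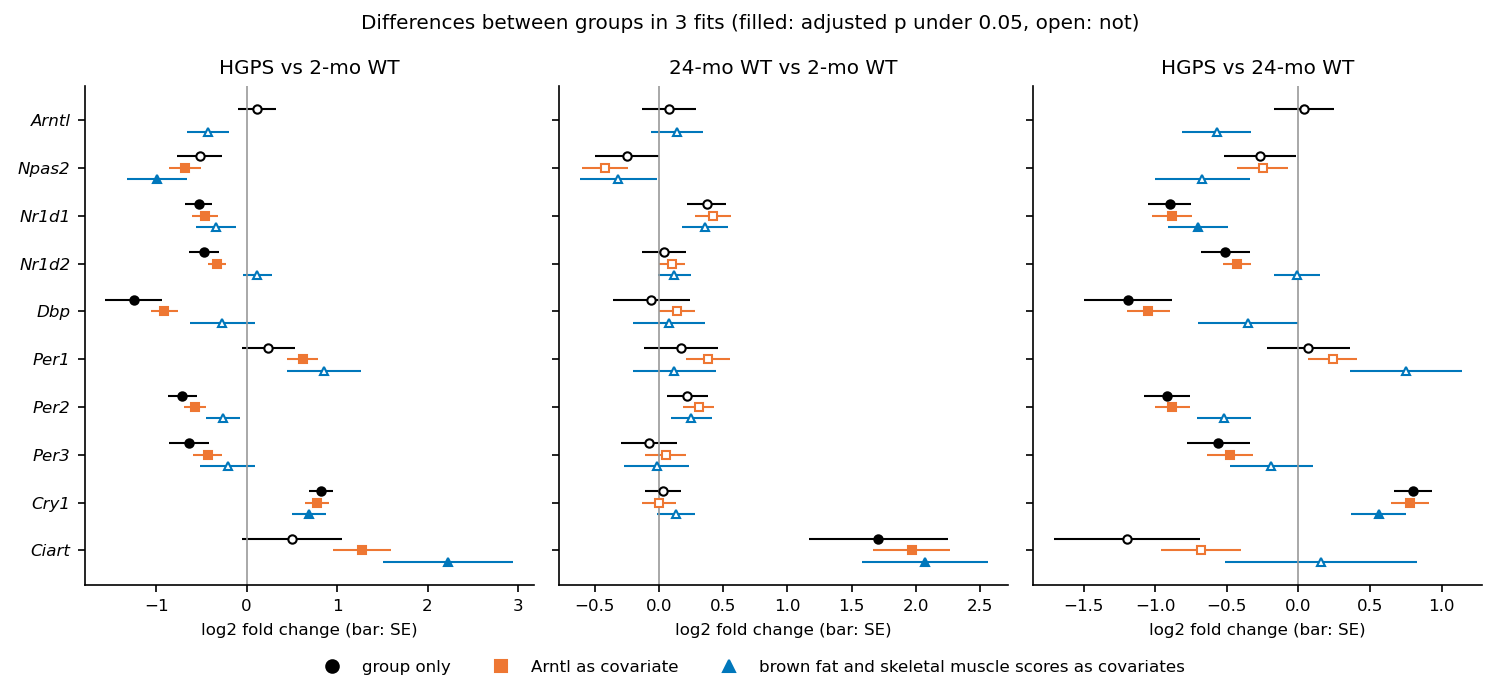
Log2 fold changes (horizontal axes, bars are SE) of the 10 genes (vertical axis) in the 3 comparisons, from the fit on group alone, the fit with Arntl as covariate, and the fit with brown fat and skeletal muscle scores. Filled markers have an adjusted p under 0.05; Cry1 is filled in all 3 fits against both WT groups, and Dbp moves from -1.25 to -0.27 against 2-mo WT when the marker scores are added.

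A clock index was computed per mouse as the mean log2 CPM of Nr1d1, Nr1d2, Per3, Dbp and Ciart minus the mean of Arntl and Npas2, as a description without a test. It ran from -1.73 to 0.79 (median -0.41) in 2-mo WT mice, from -1.23 to -0.22 (median -0.76) in HGPS mice and from -1.42 to 1.59 (median 0.01) in 24-mo WT mice. The groups overlapped, and all HGPS mice lay inside the range of the 2-mo WT mice. The 5 mice of 62 d spanned that whole range, and the 95-d mouse lay at -0.11. Npas2 (not called) enters the index with the opposite sign to Nr1d1, Nr1d2, Per3 and Dbp. All had negative log2 fold changes against 2-mo WT, so these partly cancel in the index. Ciart, with the fewest counts, weighs as much as each other gene on its side. Whether the groups differed in the time of day of dissection cannot be told apart from the genotype or age with these samples.

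Brown fat RNA and the index were set side by side for each mouse, without a test. In 2-mo WT mice the mouse of lowest index (-1.73, replicate 1) had the highest brown fat sum, 672 CPM, and the mouse of highest index (0.79, replicate 4) the lowest, 108 CPM. In 24-mo WT mice, replicates 2 and 5 had brown fat sums of 135 and 154 CPM at an index of 1.59 and -1.06, and the HGPS mouse of lowest sum, 498 CPM, had an index of -0.82. Arntl and the brown fat score, its mean log2 CPM, had r of 0.69 over the 18 mice with group means removed (rho 0.56, permutation p = 0.00708 for r and 0.0294 for rho). The adjusted values over 10 relations were 0.0101 and 0.0367, and r was 0.60 without the 2 mice farthest from the median. This relation was chosen after the values were seen, and its part in the relations among clock genes was not tested.

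**Figure D4:**
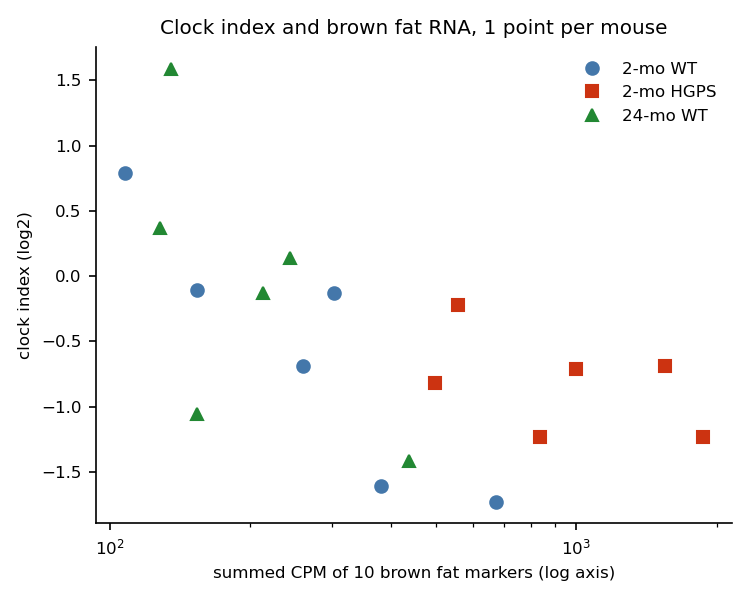
Clock index (log2, vertical axis) against the summed CPM of 10 brown fat markers (log axis, horizontal), 1 point per mouse. HGPS mice lie to the right, from 498 to 1870 CPM, within the index range of the 2-mo WT mice, and 2-mo WT mice run from high index and 108 CPM to low index and 672 CPM.

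For most of the 10 genes, the spread between mice was smaller in HGPS than in WT. The SD of log2 CPM was smaller in HGPS than in 2-mo WT mice for 9 of the 10 genes, and than in 24-mo WT mice for 9 of the 10. Its median over the 10 genes was 0.463 in 2-mo WT, 0.248 in HGPS and 0.408 in 24-mo WT mice, against medians over all tested genes of 0.18, 0.19 and 0.22. Ciart spanned 10.3-fold in 2-mo WT, 1.68-fold in HGPS and 17.1-fold in 24-mo WT mice, and Per1 spanned 3.73-fold, 1.69-fold and 3.13-fold. Per3 had an SD of 0.59, 0.11 and 0.40 in that order. Nr1d2 was the exception against 2-mo WT mice, with an SD of 0.29 in both groups, and Per2 against 24-mo WT mice, with an SD of 0.32 in HGPS and 0.18 in 24-mo WT mice. Most of the 10 genes varied together with Arntl, so they are not separate counts of a smaller spread. HGPS libraries were also deeper, with median totals of 22752394 against 18031579 in 2-mo WT and 17964166 in 24-mo WT. The difference in spread was not tested. Ciart, Per1 and Dbp, with pooled within-group SDs of 1.01, 0.59 and 0.59, stood at the percentiles 97.9, 89.4 and 89.3 of all tested genes.

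Genes outside the 10 that followed the index most closely over the 18 mice, with group means removed, were ranked among the 13675 genes whose mean was 1 CPM or more, without a test. Tef, a D-box activator related to Dbp, led with r of 0.94, before Tspan4 (0.90), Agpat4 (0.88), Sgk1 (0.86), a kinase induced by glucocorticoid, and Supt5 (0.83). The lowest were Faim (-0.85), Hmgb3 (-0.82), Akap5 (-0.82), Leo1 (-0.80) and Zscan30 (-0.80). Of the 10 clock genes, Per1 (0.78), Per2 (0.65) and Cry1 (-0.36) were not used in the index. All these values share the same 18 libraries.

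A list of 24 other clock genes held 23 that were tested, and Rorb had too few counts. In HGPS against 2-mo WT, 12 of 23 were called, 7 higher and 5 lower, or 52.2% beside the 43.2% of all genes. The 3 of smallest adjusted p were Usp2, a deubiquitinase and clock output (log2 fold change 0.80, SE 0.13, edgeR adjusted p = 0.000104), Nampt, the rate-limiting enzyme of NAD salvage (0.57, SE 0.10, edgeR adjusted p = 0.000117), and Cry2, the second cryptochrome (-0.52, SE 0.12, edgeR adjusted p = 0.00197). Cry2 was thus lower and Cry1 higher in the same mice, with mean levels of 25.4 CPM in HGPS and 36.4 CPM in 2-mo WT for Cry2, and no overlap of the groups for either. Between the WT ages 2 of 23 were called (8.7% beside 11.7% of all genes), both higher at 24 mo, Cry2 (0.41, SE 0.12, edgeR adjusted p = 0.0286) and the repressor Bhlhe40 (0.58, SE 0.17, edgeR adjusted p = 0.032), and Nampt did not pass (0.28, adjusted p = 0.0601). HGPS against 24-mo WT gave 11 calls of 23, 5 higher and 6 lower, a share of 47.8% that is near the 47.3% of all genes, led by Cry2 (-0.93), the ubiquitin ligase subunit Fbxl21 (-1.34) and the repressor Bhlhe41 (-0.93), each with groups that did not overlap. Groups did not overlap for 4 of the 23, beside 22.2% of all genes. With the brown fat and skeletal muscle scores, 6 of 23 were called against 2-mo WT, of which 4 had been called before, beside 21.7% of all genes in that fit.

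Genes that respond to inputs known to reset peripheral clocks were read from 3 further lists. These are mRNA levels, and the inputs themselves were not measured. Of 10 glucocorticoid-induced genes, 6 were higher in HGPS than in 2-mo WT mice and 0 lower by edgeR, or 60% called beside 43.2% of all genes, led by the metallothioneins Mt2 (log2 fold change 2.12, SE 0.35, edgeR adjusted p = 8.71e-05) and Mt1 (1.23, SE 0.27, edgeR adjusted p = 0.00124) and the kinase Pdk4 (1.54, SE 0.31, edgeR adjusted p = 0.000558). Tsc22d3, Sgk1, Klf9 and Errfi1 of that list were not called against 2-mo WT. None of the 10 was called by edgeR between the WT ages, the smallest p being 0.0526 before adjustment, for Angptl4. Against 24-mo WT, 4 of 10, or 40% beside 47.3% of all genes, were called, all higher in HGPS, with Mt2 at 1.97, Mt1 at 1.19 and Pdk4 at 1.19. Of 12 immediate early genes, 2 were higher and 5 lower in HGPS than in 2-mo WT, or 58.3% called beside 43.2% of all genes, among them Jun (-1.29, edgeR adjusted p = 0.00115), Nr4a3 (1.08, edgeR adjusted p = 0.00737) and Atf3 (-1.56, edgeR adjusted p = 0.0114). At 24 mo, 4 of 12 (33.3% beside 11.7% of all genes) were higher than at 2 mo in WT, including Egr2 (1.73), Junb (1.5) and Ier2 (0.93). In HGPS, 9 of 12 (75% beside 47.3% of all genes) were lower than in 24-mo WT, including Egr1 (-1.94), Ier2 (-1.10) and Egr2 (-1.52). Of 8 temperature-responsive genes, 3 were lower in HGPS than in 2-mo WT, a share of 37.5% that is below the 43.2% of all genes, namely Cirbp (-0.51, edgeR adjusted p = 0.0195), Dnajb1 (-0.73, edgeR adjusted p = 0.032) and Hspa1a (-1.34, edgeR adjusted p = 0.0342). Cirbp, induced by mild cold, was also the 1 of 8 called between the WT ages (-0.56, edgeR adjusted p = 0.0361), 12.5% beside 11.7% of all genes. Against 24-mo WT 2 of 8 were called, Hsph1 (-0.57) and Rbm3 (0.30), or 25% beside 47.3% of all genes. The part of these inputs in the clock gene differences was not tested.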

How the data were processed

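RNA of whole descending aortas of 18 mice was measured as stranded, ribosomal RNA-depleted total RNA. Transcripts of GENCODE M23 (GRCm38.p6) were quantified by the authors with salmon from paired-end reads, and tximport gave the estimated counts of each gene, which were deposited unnormalized as whole numbers, so rounding changed nothing. Their notes also list Bowtie 0.12.2. Symbols, positions and exon lengths came from GENCODE M21, in which 54107 of 54281 identifiers were found. Groups and replicate numbers came from the labels. In the deposited column names, the sample numbers of HGPS replicates 1 to 3 stand apart from those of replicates 4 to 6. Those of each WT group lie close together. What these numbers stand for was not given. HGPS replicates 1 to 3 lay below replicates 4 to 6 for Per2, Nr1d1 and Nr1d2 and overlapped them for the other clock genes, which was not tested.

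The filter of 10 counts or more in 6 mice or more was followed by edgeR 4.0.16 (TMM, glmQLFit, glmQLFTest, R 4.3.3) on all 3 groups, with 15 residual degrees of freedom and Benjamini-Hochberg adjustment over the 15210 genes. Each SE was derived from the fold change and its F statistic. Log2 CPM used a prior count of 2. Relations were tested by permutation (scipy 1.17.1). The fit was tested on simulated counts.

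Totals per mouse were 17838351 to 30844775 in HGPS, 12413229 to 21016752 in 2-mo WT and 13622602 to 19871697 in 24-mo WT, so low genes such as Ciart carry the most counting error. The 45 within-group pairs of mice differed by more than sampling noise (chi-square per degree of freedom 7.77 to 93.8).

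The genes, lists and tests were chosen with earlier results of these data known. By rule, all 10 clock genes were named, the 3 genes of smallest adjusted p of each further list and comparison, and the 5 genes of highest and 5 of lowest r to the index. Alternatives were RLE scaling, no count filter, DESeq2 1.42.0, the stricter cut-offs, a replicate block, fits on the compared groups alone, marker scores as covariates and each mouse left out. Arntl as covariate, the relation to brown fat, and the alternatives of the other clock genes with a mouse left out or with marker scores were chosen after seeing the data. No promoter entry for Per2 was used here.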

Additional observations from a re-analysis of the deposited data

Results flagged for a closer look

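Dixon's test for a mouse far from the other 5 was run on each of the 10 clock genes in each of the 3 groups, 30 groups of values in all. It flagged 0 of the 30.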

How the results depend on the processing

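At the stricter cut-offs in edgeR, 1 clock gene was called in HGPS against 2-mo WT, 0 between the WT ages and 3 in HGPS against 24-mo WT. Of the other clock genes 1, 0 and 3 were called, beside 9.5%, 2% and 12.1% of all genes. With brown fat and skeletal muscle scores, 3 clock genes were called against 2-mo WT and 2 against 24-mo WT, and 6 and 7 of the 23 other clock genes, beside 21.7% and 27.1% of all genes. In that fit Arntl reversed to -0.43 against 2-mo WT and -0.57 against 24-mo WT, Nr1d2 to 0.12 against 2-mo WT, Dbp to 0.08 between the WT ages and Ciart to 0.16 against 24-mo WT. With Arntl as covariate, Per3 and Dbp reversed to 0.05 and 0.14 between the WT ages. With the 2 WT groups alone, 0 clock genes and 0 other clock genes were called between the ages, beside 9.83% of all genes. The cause of these shifts was not tested.

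With the replicate number as a block, 0 clock genes were called between the WT ages (Ciart 1.53, edgeR adjusted p = 0.0848), beside 10.3% of all genes. Dbp reversed to 0.00 there, and the other counts moved by at most 1.5 times. Same-numbered mice did not deviate together: r over 18 pairs ran from -0.162 to 0.172 (median -0.0131), and 2 were over 0.1. Of 18 mice, 4 matched best with their own number. The check reads the replicate number alone, so it cannot tell whether mice shared a litter, a cage or a day of dissection.

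With 1 mouse left out at a time, calls among the 10 clock genes ran from 4 to 7 against 2-mo WT, from 0 to 1 between the WT ages and from 5 to 7 in HGPS against 24-mo WT. For the other clock genes they ran from 11 to 14, from 1 to 3 and from 7 to 11, the lowest without the 24-mo WT mouse of replicate 5. The shares of all genes called in these fits ran from 38.7% to 45.6%, from 9.35% to 12% and from 43.7% to 47.5% in that order. Between the WT ages, log2 fold changes that changed sign ran from -0.03 to 0.24 for Arntl, -0.03 to 0.30 for Per1, -0.20 to 0.11 for Per3, -0.05 to 0.11 for Cry1, -0.06 to 0.14 for Nr1d2 and -0.23 to 0.22 for Dbp. Against 24-mo WT they ran from -0.07 to 0.15 for Arntl and -0.07 to 0.27 for Per1. The r with Arntl ran from 0.29 to 0.71 for Cry1, the highest without the 24-mo WT mouse of replicate 2 (permutation p = 0.00205), and from -0.66 to -0.32 for Nr1d1, which passed without the 24-mo WT mouse of replicate 1 (-0.66) or 6 (-0.57). Cry1 also passed by Spearman's rho (0.54) and without the 2 farthest mice (0.74), and Per3 did not without those (-0.61).

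Depth limits Ciart most. Of all fold changes under the alternatives, 668 kept direction and side of the threshold, 27 reversed, 12 newly passed and 40 no longer passed. Of the relations, 183 kept both, 5 newly passed and 1 no longer passed. DESeq2 called the same 6 clock genes against 2-mo WT, beside 44% of all genes. It called 7 against 24-mo WT, beside 48.4% of all genes, where Ciart was added (-1.22, adjusted p = 0.0345).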
